A study of Mus musculus with 9 samples.

Results

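Genes that copy DNA at the replication fork and that supply its nucleotides were followed in 9 poly(A) RNA libraries of D2.0R (D2.OR), a mouse mammary adenocarcinoma cell line. The 45 members were chosen by gene name, as enzymes and cofactors of DNA synthesis, and all 45 have a row among the 55487 mouse genes of the deposited table. Cells grown in 10% serum were loaded with CellTrace Far Red (CTFR), a dye diluted by division, and 2000000 per flask were kept for 1 week in 20 mL of medium with 2% serum. They were then sorted into dye-positive cells, which the labels call quiescent, and dye-negative cells, which they call proliferative.

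Bulk cells and both sorted fractions, each numbered 1 to 3, are listed in the labels, but the list is the same for every library, so 0 of the 9 libraries could be tied to a kind. All libraries come from 1 cell line, and nothing given says that they are separate cultures. Values are therefore given by title number, in blocks 1 to 3, 4 to 6 and 7 to 9 and by first, middle and last position in a block. Neither a block nor a position is read as a kind of sample, and no library is treated as a replicate of another.

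A replication fork starts at origins marked by the origin recognition complex, where the kinase CDC7-DBF4 and factors such as TICRR turn a loaded MCM ring into an active helicase with CDC45 and GINS. Polymerase alpha-primase lays down primers, polymerases delta and epsilon extend them on the PCNA clamp that replication factor C loads, RPA covers single strands, and FEN1, DNA2 and LIG1 join the fragments. Ribonucleotide reductase makes the deoxynucleotides. Many of these genes are known targets of E2F transcription factors, which are active when cells enter S phase, and are low in resting cells.

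The library totals ran from 18732737 to 41243036 estimated counts, so 1 CPM (1 count per 1000000 scaled counts) rested on 18.3 to 40.4 counts. A floor of 3 counts stood at 0.0742 CPM in the deepest library, number 7, and at 0.164 CPM in the shallowest, number 9. The mitochondrially encoded genes, including their ribosomal RNAs and transfer RNAs, held 1.31% to 2.05% of the counts. The 8 mammary epithelial markers summed to 234 to 791 CPM, with Krt8 at 146 to 662 CPM, Krt18 at 38.0 to 156 CPM, Cdh1 at 5.46 to 13 CPM and Esr1 at 3.61 to 15.8 CPM. Krt14 reached at most 1.31 CPM, Epcam 0.219 CPM, Elf5 0.0613 CPM and Krt5 0.0284 CPM. The 8 leukocyte and NK cell markers summed to 0 to 0.123 CPM, with 5 of them at 0 counts in all libraries, and the 3 endothelial markers to 0.284 to 0.520 CPM.

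The widest ranges over the libraries belonged to Rrm2, the small subunit of ribonucleotide reductase, at 27.0-fold, Exo1 at 19.0-fold, Ticrr at 15.6-fold, Mcm10 at 11.5-fold and Uhrf1 at 11.4-fold. The narrowest belonged to Tipin at 1.3-fold, Gins4 at 1.31-fold and Orc6 at 1.32-fold. The spread of each of the 45 members over the libraries exceeded counting noise by a chi-square test of dispersion (Benjamini-Hochberg adjusted over 12813 genes), with the largest adjusted p, 4.50e-06, in Tipin. That held for 94.1% of all genes tested. A gene is called variable here when, besides, its highest and lowest log2 CPM lay at least 1 apart, a 2-fold range. Of the 45 members 30 were variable, or 66.7%, against a background of 28.0% of all genes tested, and 12 had a range of at least 4-fold, against 5.78%. These limits use log2 CPM with a prior count of 2, while the folds printed are plain ratios of CPM. Timeless, at 4.01-fold by CPM but 1.99 on the log2 scale, is therefore not among the 12. The median range of the members was 1.43 on the log2 scale, beside 0.69 over all genes tested. Without library 8 the count was 26, with Rfc3, Prim2, Rpa2 and Chaf1b no longer called, and the median range was 1.13. In bulk RNA, fewer cells in S phase and less of these RNAs per cell cannot be told apart.

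Just inside the 2-fold limit lay Prim2 at 2.05-fold and Chaf1b at 2.13-fold, and just outside it Dbf4 at 1.94-fold and Tyms at 1.79-fold. No member was lost to the filter on low counts, and the lowest value of any member was 0.368 CPM, or 12 counts, for Exo1 in library 6.

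**Figure D1:**
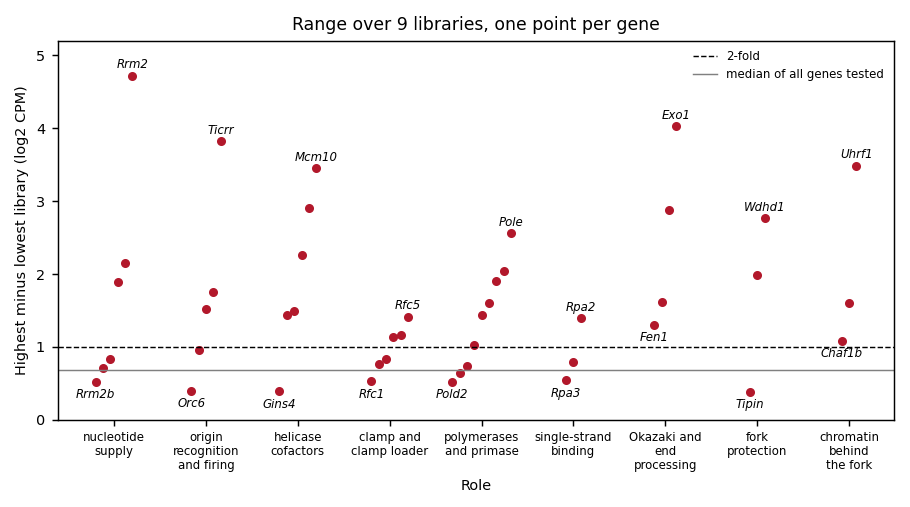
Range of each of the 45 genes over the 9 libraries (highest minus lowest log2 CPM), 1 point per gene, by role; the dashed line marks 2-fold and the grey line the median of all genes tested, 0.69. The widest gene of each role lies above the dashed line and the widest of all is Rrm2 at 4.72, while 7 of the 9 roles also hold a gene below 2-fold.

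Most members shared their highest library. Library 8 was the highest for 39 of the 45 members (17.1% of all genes tested were highest there), library 5 for Gins2 and Gins3 (background 6.35%), library 1 for Dut and Gins4 (12.7%), and library 9 for Rrm2b and Orc6 (17.4%). The lowest values were spread over more libraries, with 14 members lowest in library 3 (background 6.59%), 12 in library 6 (5.24%) and 11 in library 1 (11.4%). In 14 members the first 5 libraries were 8, 5, 2, 7 and 9 in exactly that order, against 1.56% of all genes tested. These are Rrm2, Rrm1, Tk1, Ticrr, Mcm10, Cdc45, Rfc5, Rfc3, Pole, Prim1, Exo1, Lig1, Wdhd1 and Uhrf1, and this order was picked out after the values were seen.

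By position, the middle library of every block (2, 5 and 8) was the highest of its block in 38 of the 45 members, against a background of 28.6%. The exceptions were Dut, Rrm2b, Gins4, Orc6, Pold2, Rpa3 and Tipin. In 26 members libraries 2, 5 and 8 all lay above the other 6 libraries, against 19.0% of all genes tested. The first library of every block was the highest in Dut alone (background 15.4%), and the last in 0 members (12.1%). The median member stood at -0.26, 0.30 and -0.34 in libraries 1, 2 and 3, at -0.19, 0.68 and -0.22 in libraries 4, 5 and 6, and at 0.15, 0.94 and 0 in libraries 7, 8 and 9, as log2 distance from each gene's own median.

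By block, 20 members were highest in block 7 to 9, next in block 4 to 6 and lowest in block 1 to 3 when libraries of the same position were set side by side at all 3 positions. The background was 13.5%, and 0 members had the opposite order (12.6% of all genes tested). The 20 include Rrm1, Rrm2, Tyms, Pcna, Pole, Lig1, Fen1, Mcm10, Cdc45 and Uhrf1. Blocks as a whole mostly overlapped. Only Rfc4, Prim2, Chaf1b, Pcna, Dbf4 and Orc6 had every library of block 7 to 9 above every library of block 1 to 3 (6 of 45, against 9.33% of all genes tested). Chaf1b and Prim2 did so narrowly, with library 9 at 12.143 and 11.2 CPM against library 2 at 12.137 and 10.8 CPM. Counting error on their 222 and 205 counts in library 9 is wider than these gaps. The number of such members was 34 without library 2 and 13 without library 9. The background share is for all 9 libraries and none is given for those settings. With fewer libraries such a separation is easier to reach for any gene. Dbf4 was the only member with block 4 to 6 wholly above block 1 to 3 (background 3.54%).

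Libraries 2, 5 and 8 also had the highest TMM scaling factors, 1.03, 1.04 and 1.04, against 0.976 to 0.998 in the other 6. Scaled by library totals alone, the middle library was highest in every block for 39 members, and with size factors of the RLE type for 38. The mitochondrial share was 1.45%, 1.64% and 1.37% in libraries 2, 5 and 8 and 1.31% to 2.05% in the others, and its part in the result was not tested.

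**Figure D2:**
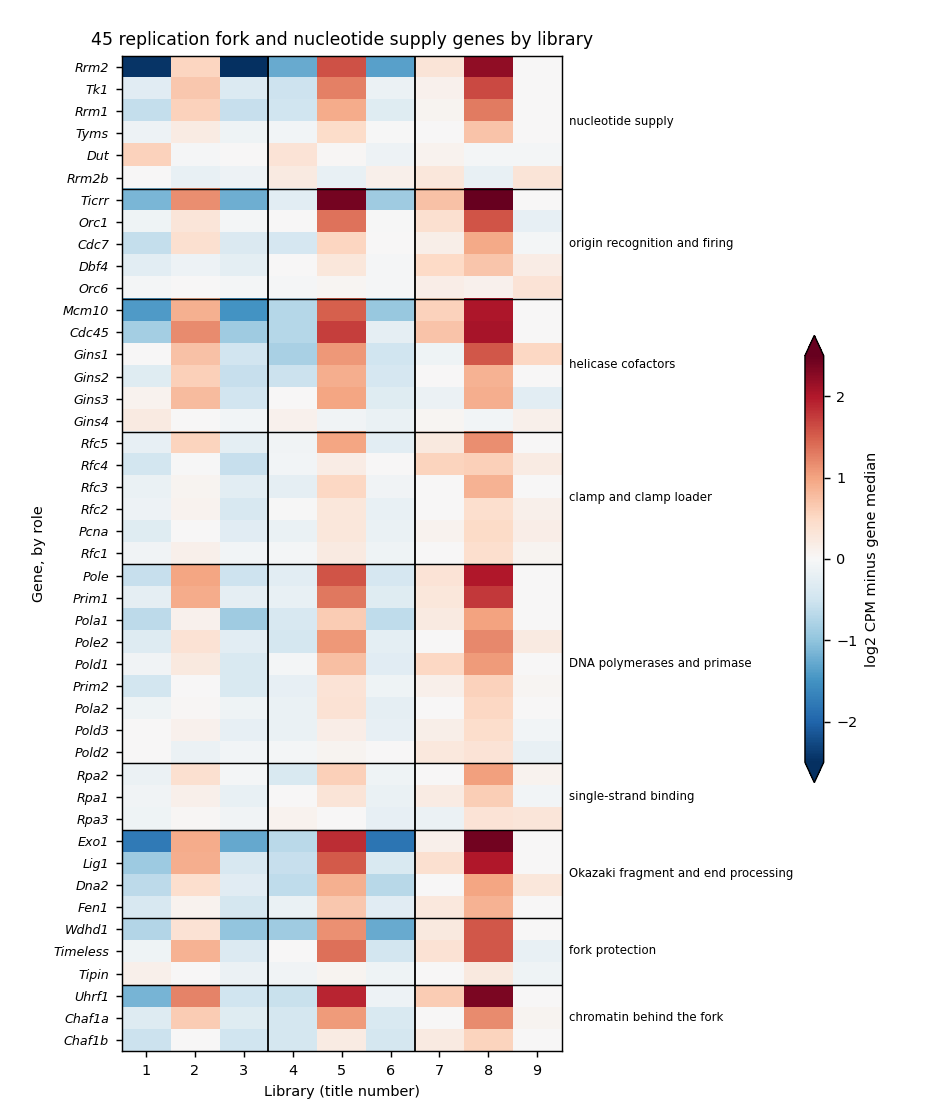
Log2 CPM of the 45 genes in the 9 libraries, each gene set to its own median over the libraries (red higher, blue lower, colours capped at 2.5); rows are grouped by role and sorted by range, and vertical lines separate the title number blocks. Columns 2, 5 and 8 are red for most rows, with Dut, Rrm2b, Gins4, Orc6, Tipin and Pold2 as pale exceptions.

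Nucleotide supply held both the widest and some of the narrowest genes. Rrm2 (ENSMUSG00000020649, chromosome 12, 24708241 to 24714146, plus strand), the small subunit of ribonucleotide reductase used in S phase, stood at 2.79, 22.2 and 2.63 CPM in libraries 1, 2 and 3, at 6.43, 46.2 and 5.95 CPM in libraries 4, 5 and 6, and at 19.1, 71.1 and 15.3 CPM in libraries 7, 8 and 9. Libraries 8, 5 and 2 were the highest and libraries 3 and 1 the lowest, and the extremes differed 27.0-fold (95% interval 22.0 to 33.6). At every position block 7 to 9 was highest and block 1 to 3 lowest. The middle library exceeded the next highest of its block 7.96-fold in block 1 to 3, 7.18-fold in block 4 to 6 and 3.71-fold in block 7 to 9.

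Rrm1, the large subunit, which pairs with either small subunit, ranged from 23.2 CPM in library 1 to 86.5 CPM in library 8, in the same order of the first 5 libraries as Rrm2. Rrm2b (ENSMUSG00000022292, chromosome 15, 37923952 to 37961318, minus strand), the p53-inducible small subunit p53R2, known for supplying deoxynucleotides outside S phase, stood at 27.9, 24.7 and 25.6 CPM in libraries 1, 2 and 3, at 32.7, 24.5 and 30.4 CPM in libraries 4, 5 and 6, and at 33.9, 24.7 and 35.1 CPM in libraries 7, 8 and 9. Its libraries 2, 5 and 8 were the lowest of the 9, and it was the only member with libraries 2, 5 and 8 all below the other 6 (background 20.1%). Its range was small, 1.43-fold (95% interval 1.29 to 1.60).

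Promoters are shown for the 2 reductase genes that had a promoter window, for Uhrf1, of wide range, and for Dut, of narrower range. Ticrr and Mcm10 ranged wider than Uhrf1, and Tipin, Gins4 and Orc6 narrower than Dut. The promoters shown are therefore examples and not the ends of the pattern. Each is the RefSeq window (GRCm38.p6) from 250 bases before to 50 bases after the start site, read 5′ to 3′ on the gene's strand. Capitals mark E2F-type motifs (TTCCCGC, or else TTCGCGC, or else TTGCCGC, or else TTGGCGC) and the CCAAT box on either strand. Neighbouring matches are joined in capitals where they touch or overlap.
Rrm2 (chr12:24708004-24708303, plus strand): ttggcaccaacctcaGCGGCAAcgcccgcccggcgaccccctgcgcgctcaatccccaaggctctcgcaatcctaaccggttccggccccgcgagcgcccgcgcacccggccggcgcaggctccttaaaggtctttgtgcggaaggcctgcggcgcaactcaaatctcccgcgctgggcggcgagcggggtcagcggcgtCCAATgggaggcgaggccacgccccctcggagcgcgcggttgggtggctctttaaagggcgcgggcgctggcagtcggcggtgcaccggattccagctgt
Rrm1 (chr7:102441445-102441744, plus strand): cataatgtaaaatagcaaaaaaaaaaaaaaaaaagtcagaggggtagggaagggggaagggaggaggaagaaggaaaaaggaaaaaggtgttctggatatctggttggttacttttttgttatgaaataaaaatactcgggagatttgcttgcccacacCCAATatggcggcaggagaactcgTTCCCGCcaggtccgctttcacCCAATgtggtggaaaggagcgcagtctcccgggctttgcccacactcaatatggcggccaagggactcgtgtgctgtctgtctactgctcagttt
Uhrf1 (chr17:56303087-56303386, plus strand): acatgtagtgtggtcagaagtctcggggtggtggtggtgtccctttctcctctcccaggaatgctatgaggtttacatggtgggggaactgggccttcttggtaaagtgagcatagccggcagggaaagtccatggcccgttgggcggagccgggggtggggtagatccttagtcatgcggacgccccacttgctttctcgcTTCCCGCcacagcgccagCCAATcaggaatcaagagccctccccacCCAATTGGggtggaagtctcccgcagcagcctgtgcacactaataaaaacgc
Dut (chr2:125247265-125247564, plus strand): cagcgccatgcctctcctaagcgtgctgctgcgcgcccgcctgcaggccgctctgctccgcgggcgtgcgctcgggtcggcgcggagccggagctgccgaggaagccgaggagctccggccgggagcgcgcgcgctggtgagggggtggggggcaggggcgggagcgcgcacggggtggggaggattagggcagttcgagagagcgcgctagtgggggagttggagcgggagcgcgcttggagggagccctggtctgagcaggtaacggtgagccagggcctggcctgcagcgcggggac
Relative to the start site, Rrm2 has its E2F-type match at -235 and its CCAAT match at -50. Rrm1 has an E2F-type match at -67 and CCAAT matches at -91 and -45. The window of the first of 2 Uhrf1 starts has an E2F-type match at -48 and CCAAT at -30, with 2 more CCAAT matches at the start site. Dut has neither motif in this window. That window lies wholly inside the gene as annotated by GENCODE, which starts at 125247190. Bases upstream of that start were not searched.

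Windows were found for 36 of the 45 members. An E2F-type motif occurred in 21 of the 36 (58.3%), against 10.9% of all 27025 genes with a window and 20.0% of the 9507 of them that were also tested for variation. Among members it occurred in 18 of 25 variable ones and in 3 of the 11 others (Pold3, Rfc1 and Rpa3). The variable members with a window but without this motif were Cdc45, Dna2, Mcm10, Rfc5, Ticrr, Timeless and Tk1. The Timeless window, from 128237816 to 128238115, lies wholly inside the gene, which GENCODE starts at 128232065. The window of Dut, counted among the 11 others, also lies inside its gene. For both, bases upstream of the annotated gene were not searched. Over all tested genes with a window, 431 of the 2334 variable ones held it (18.5%), a share no higher than the 20.0% of all tested genes. The CCAAT box occurred in 19 of the 36, or 52.8%, against 43.5% of the tested genes. The CHR motif of late cell cycle genes (TTTGAA or TTCGAA, either strand) occurred in 19.4% of the members and 16.2% of the tested genes. These are matches of letters and not shown binding sites, and base composition was not matched.

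Tk1 and Tyms, of thymidine supply, kept libraries 8, 5 and 2 on top, with smaller ranges than Rrm2. Tk1, thymidine kinase 1 of the salvage pathway, stood at 6.41, 12.3 and 6.11 CPM in libraries 1, 2 and 3, at 5.44, 18.7 and 7.05 CPM in libraries 4, 5 and 6, and at 8.36, 24.5 and 7.77 CPM in libraries 7, 8 and 9. Its extremes differed 4.50-fold (95% interval 3.81 to 5.34), with libraries 8, 5 and 2 on top and library 4 lowest. Tyms, thymidylate synthase of the de novo pathway, stood at 19.5, 24.6 and 19.9 CPM in libraries 1, 2 and 3, at 20.5, 29.4 and 21.1 CPM in libraries 4, 5 and 6, and at 21.4, 35.0 and 21.7 CPM in libraries 7, 8 and 9. Tyms kept libraries 8, 5 and 2 as its 3 highest, but its range of 1.79-fold (95% interval 1.62 to 1.98) missed the 2-fold limit.

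Dut, which breaks down dUTP and so keeps uracil out of DNA, had the highest level per exon length of all members and its own order of libraries. It ranged from 93.7 CPM in library 6 to 153 CPM in library 1, with libraries 1 and 4 highest and a ratio of 1.64-fold (95% interval 1.56 to 1.72).

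**Figure D3:**
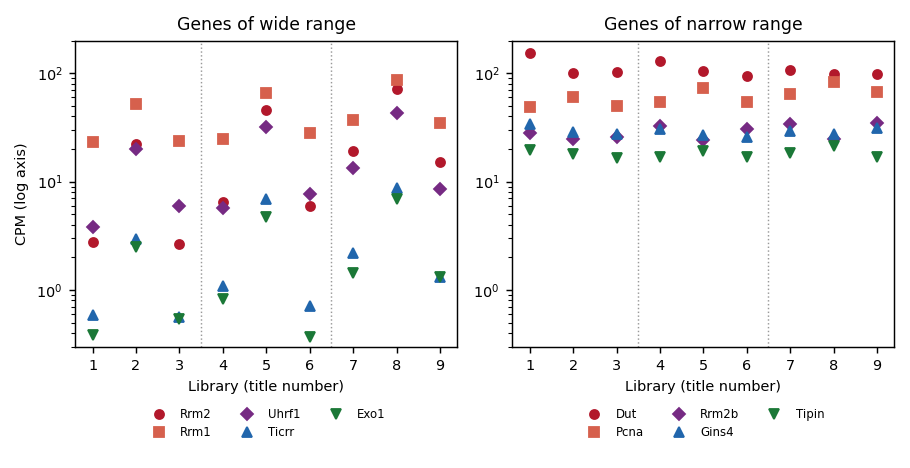
CPM (log axis) in the 9 libraries for 5 genes of wide range (left) and 5 of a range under 2-fold (right). Each point is 1 library, and dotted lines separate title number blocks. Dut and Pcna, on the right, ranged 0.71 and 0.77 on the log2 scale, above the median of all genes tested, 0.69. On the left libraries 2, 5 and 8 stand above their block neighbours for every gene, as for Rrm2 at 22.2, 46.2 and 71.1 CPM; on the right only Pcna does so.

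At origins, a firing factor ranged widely and a subunit of the recognition complex narrowly. Ticrr (ENSMUSG00000046591, chromosome 7, 79660196 to 79698148, plus strand), also called treslin, helps load CDC45, and stood at 0.592, 2.93 and 0.566 CPM in libraries 1, 2 and 3, at 1.09, 6.93 and 0.705 CPM in libraries 4, 5 and 6, and at 2.18, 8.81 and 1.31 CPM in libraries 7, 8 and 9. Libraries 8, 5 and 2 were the 3 highest and the extremes differed 15.6-fold (95% interval 9.92 to 25.8). Orc1, the largest subunit of the origin recognition complex, ranged from 1.37 CPM in library 9 to 4.74 CPM in library 8, and Cdc7, the kinase of origin firing, from 2.61 CPM in library 1 to 7.64 CPM in library 8. Both were variable.

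Orc6 and Dbf4 were not variable. Orc6, a small subunit of the recognition complex, stood at 20.7, 21.5 and 20.8 CPM in libraries 1, 2 and 3, at 21.1, 22.2 and 21.0 CPM in libraries 4, 5 and 6, and at 24.1, 23.1 and 27.3 CPM in libraries 7, 8 and 9. Library 9 was its highest, and all of block 7 to 9 lay above the other 6 libraries. Its range was 1.32-fold (95% interval 1.17 to 1.49). Dbf4, the regulatory subunit of CDC7, ranged from 16.3 CPM in library 1 to 31.5 CPM in library 8, or 1.94-fold (95% interval 1.74 to 2.16), and passed the 2-fold limit with libraries scaled by totals alone (1.02 on the log2 scale).

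The helicase cofactors split within the GINS complex. Mcm10, which helps activate the helicase, stood at 1.29, 6.37 and 1.22 CPM in libraries 1, 2 and 3, at 2.11, 9.70 and 1.78 CPM in libraries 4, 5 and 6, and at 5.17, 14.0 and 3.45 CPM in libraries 7, 8 and 9. Libraries 8, 5 and 2 were highest, libraries 3 and 1 lowest, and the extremes differed 11.5-fold (95% interval 8.41 to 16.1). Cdc45, the helicase subunit that joins at firing, ranged from 1.87 CPM in library 3 to 14.4 CPM in library 8. Of the 4 GINS subunits Gins1 ranged from 0.693 CPM in library 4 to 3.56 CPM in library 8, Gins2 from 10.3 CPM in library 3 to 29.2 CPM in library 5 and Gins3 from 2.46 CPM in library 3 to 6.76 CPM in library 5, and all 3 were variable.

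Gins4 (ENSMUSG00000031546, chromosome 8, 23226616 to 23237659, minus strand), the remaining subunit, stood at 33.7, 28.7 and 27.4 CPM in libraries 1, 2 and 3, at 30.7, 27.0 and 25.7 CPM in libraries 4, 5 and 6, and at 29.6, 27.5 and 31.2 CPM in libraries 7, 8 and 9. Its highest library was 1, its lowest 6, and its range was 1.31-fold (95% interval 1.19 to 1.44), against 2.74-fold to 5.14-fold for the other GINS genes. Libraries 2, 5 and 8 lay among the others for Gins4 and above all of them for Gins1, Gins2 and Gins3.

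The clamp and the large loader subunit stayed under the 2-fold limit. Pcna (ENSMUSG00000027342, chromosome 2, 132249162 to 132253314, minus strand), the sliding clamp, stood at 49.0, 60.4 and 49.7 CPM in libraries 1, 2 and 3, at 54.1, 74.0 and 54.2 CPM in libraries 4, 5 and 6, and at 64.1, 83.8 and 67.6 CPM in libraries 7, 8 and 9. Its range was 1.71-fold (95% interval 1.60 to 1.82), and all of block 7 to 9 lay above all of block 1 to 3. Rfc1, the large subunit of the loader, stood at 67.3, 78.4 and 68.4 CPM in libraries 1, 2 and 3, at 69.6, 83.4 and 66.3 CPM in libraries 4, 5 and 6, and at 71.8, 95.5 and 75.5 CPM in libraries 7, 8 and 9. Rfc1 had a range of 1.44-fold (95% interval 1.37 to 1.52), with libraries 8, 5 and 2 highest.

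Among the small loader subunits Rfc5 varied most and stood at 9.20, 15.5 and 8.89 CPM in libraries 1, 2 and 3, at 9.99, 20.9 and 8.77 CPM in libraries 4, 5 and 6, and at 12.5, 23.5 and 10.6 CPM in libraries 7, 8 and 9. That was 2.68-fold (95% interval 2.34 to 3.07), again with libraries 8, 5 and 2 highest. Rfc3 and Rfc4 were also variable, at 2.21-fold and 2.28-fold, and Rfc2 was not, at 1.78-fold. Rfc4 put library 7 above library 5, at 4.87 against 3.78 CPM. Its library 9, at 3.83 CPM on 70 counts, lay within counting error of library 5, on 109 counts.

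In the polymerases the leading-strand enzyme varied most. Pole, the catalytic subunit of polymerase epsilon, stood at 4.88, 14.4 and 5.07 CPM in libraries 1, 2 and 3, at 6.07, 21.7 and 5.46 CPM in libraries 4, 5 and 6, and at 9.20, 29.1 and 7.27 CPM in libraries 7, 8 and 9. The extremes differed 5.97-fold (95% interval 5.0 to 7.18), with libraries 8, 5 and 2 highest and libraries 1 and 3 lowest. Its partner Pole2 ranged 3.11-fold, Pola1, the catalytic subunit of polymerase alpha, 3.76-fold, and Pold1, the catalytic subunit of polymerase delta, 2.71-fold. Of the primase subunits Prim1 ranged 4.21-fold and Prim2 2.05-fold.

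Accessory subunits of polymerases alpha and delta were not variable. Pold2 stood at 32.0, 28.6 and 30.3 CPM in libraries 1, 2 and 3, at 30.8, 33.4 and 31.8 CPM in libraries 4, 5 and 6, and at 38.0, 40.2 and 27.9 CPM in libraries 7, 8 and 9. Its highest libraries were 8 and 7, its lowest 9 and 2, and its range was 1.44-fold (95% interval 1.3 to 1.60). Pola2 and Pold3 ranged 1.66-fold and 1.56-fold.

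Of the RPA subunits, which coat single-stranded DNA, only Rpa2 was variable. Rpa2 stood at 5.43, 8.02 and 5.80 CPM in libraries 1, 2 and 3, at 4.65, 9.08 and 5.61 CPM in libraries 4, 5 and 6, and at 6.03, 12.3 and 6.45 CPM in libraries 7, 8 and 9. Its range was 2.65-fold (95% interval 2.19 to 3.22), or 1.39 on the log2 scale, and 0.96 without library 8, under the 2-fold limit. Rpa1, the largest subunit, ranged from 38.1 CPM in library 3 to 66.0 CPM in library 8. Rpa3, the smallest, stood at 9.23, 10.2 and 9.40 CPM in libraries 1, 2 and 3, at 10.6, 9.98 and 8.68 CPM in libraries 4, 5 and 6, and at 9.0, 12.6 and 12.3 CPM in libraries 7, 8 and 9, a range of 1.46-fold (95% interval 1.25 to 1.70) in which libraries 8 and 9 were the highest.

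All 4 genes of fragment joining and end processing were variable. Exo1 (ENSMUSG00000039748, chromosome 1, 175880581 to 175913489, plus strand), an exonuclease of mismatch repair and end resection, stood at 0.383, 2.5 and 0.538 CPM in libraries 1, 2 and 3, at 0.824, 4.75 and 0.368 CPM in libraries 4, 5 and 6, and at 1.43, 6.98 and 1.31 CPM in libraries 7, 8 and 9. Libraries 8, 5 and 2 were highest, and the extremes differed 19.0-fold (95% interval 10.7 to 37.2) on 255 and 12 counts. Lig1, the ligase that seals the fragments, ranged from 4.46 CPM in library 1 to 33.3 CPM in library 8, and Dna2, a nuclease-helicase of long flaps, from 0.920 CPM in library 6 to 2.96 CPM in library 8. Fen1, the flap endonuclease, stood at 11.7, 16.5 and 11.4 CPM in libraries 1, 2 and 3, at 13.7, 24.7 and 12.6 CPM in libraries 4, 5 and 6, and at 18.6, 28.1 and 15.4 CPM in libraries 7, 8 and 9. Its range was 2.47-fold (95% interval 2.20 to 2.78), the narrowest of the 4.

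The fork protection pair Timeless and Tipin, whose proteins form 1 complex, ranged 4.01-fold and 1.3-fold. Tipin stood at 19.7, 18.2 and 16.5 CPM in libraries 1, 2 and 3, at 17, 19.2 and 16.8 CPM in libraries 4, 5 and 6, and at 18.2, 21.5 and 17 CPM in libraries 7, 8 and 9. That was 1.3-fold (95% interval 1.17 to 1.45), the smallest range of all 45 members, with library 8 highest and library 1 next. Timeless ranged from 4.08 CPM in library 6 to 16.4 CPM in library 8. Wdhd1, which ties polymerase alpha to the helicase, stood at 2.79, 6.0 and 2.35 CPM in libraries 1, 2 and 3, at 2.51, 10.3 and 1.93 CPM in libraries 4, 5 and 6, and at 5.51, 13.6 and 4.65 CPM in libraries 7, 8 and 9. The extremes differed 7.01-fold (95% interval 5.39 to 9.27), with libraries 8, 5 and 2 highest and library 6 lowest.

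Behind the fork, Uhrf1 (ENSMUSG00000001228, chromosome 17, 56303321 to 56323486, plus strand), which reads newly copied DNA methylated on 1 strand and brings in the maintenance methyltransferase, stood at 3.80, 20.1 and 6.0 CPM in libraries 1, 2 and 3, at 5.77, 31.7 and 7.73 CPM in libraries 4, 5 and 6, and at 13.2, 43.2 and 8.48 CPM in libraries 7, 8 and 9. Libraries 8, 5 and 2 were the highest and library 1 the lowest, and the extremes differed 11.4-fold (95% interval 9.37 to 14.0). Chaf1a, the large subunit of the histone chaperone CAF-1, ranged from 10.5 CPM in library 4 to 31.9 CPM in library 8. Its partner Chaf1b stood at 8.36, 12.1 and 8.63 CPM in libraries 1, 2 and 3, at 8.90, 14.0 and 8.99 CPM in libraries 4, 5 and 6, and at 14.2, 17.8 and 12.1 CPM in libraries 7, 8 and 9. Library 7 came above library 5 for Chaf1b, but within counting error. The range of Chaf1b was 2.13-fold (95% interval 1.83 to 2.47), and 0.76 on the log2 scale, under the limit, without library 8.

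Ratios of counts between 2 genes of the same library do not depend on how libraries are scaled. They depend on gene length, so only their change over libraries is read, and the 18 pairs were chosen after the values were seen. Rrm2 over Rrm1 was 0.822 in library 8, 0.694 in library 5 and 0.516 in library 7, then 0.436 in library 9 and 0.422 in library 2. It lay at 0.260 and 0.210 in libraries 4 and 6 and at 0.120 and 0.112 in libraries 1 and 3. The 95% intervals for libraries 8 (0.780 to 0.866) and 3 (0.0890 to 0.138) cover counting error only. Library 2 (0.388 to 0.459) lay below library 7 (0.473 to 0.564) in this ratio, although above it in the CPM of Rrm2 and of Rrm1, and could not be told from library 9 (0.378 to 0.503).

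Rrm2 over Rrm2b, the 2 small subunits, spanned 28.9-fold. The ratio stood at 0.0998, 0.898 and 0.103 in libraries 1, 2 and 3, at 0.196, 1.89 and 0.196 in libraries 4, 5 and 6, and at 0.565, 2.88 and 0.437 in libraries 7, 8 and 9. It was highest in libraries 8, 5 and 2. Gene length is not taken out of this ratio, so a value of 1 does not mark equal levels of the 2 genes. Within complexes, Gins1 over Gins4 spanned 5.73-fold, Orc1 over Orc6 4.10-fold, Timeless over Tipin 3.14-fold and Pold1 over Pold2 2.04-fold. Lig1 over Pcna spanned 4.37-fold but Fen1 over Pcna, both partners of the same clamp, only 1.47-fold. The Chaf1a over Chaf1b ratio was lowest in library 7, at 0.990, and highest in library 5, at 2.11.

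**Figure D4:**
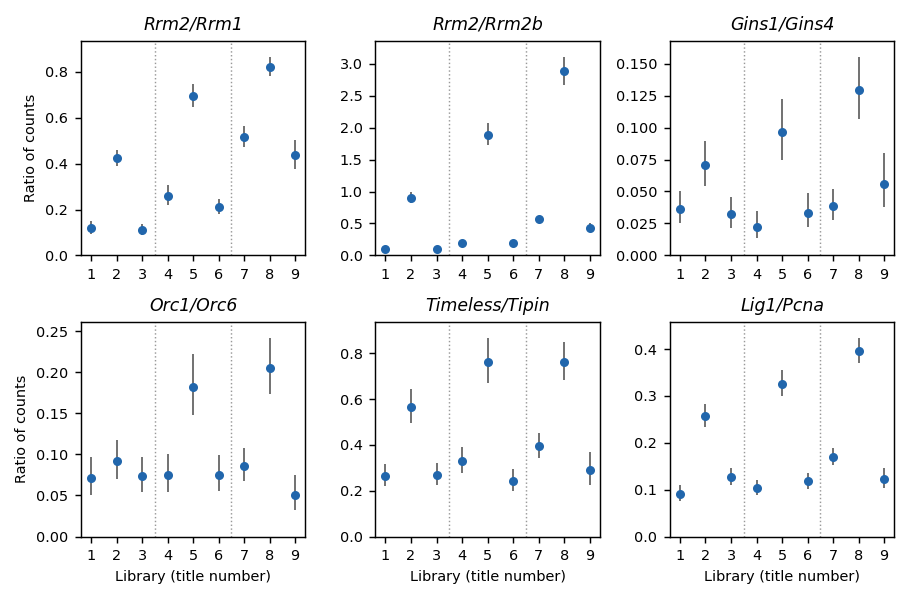
Ratio of estimated counts of 6 gene pairs within each of the 9 libraries (linear axis from 0); bars are exact 95% intervals for counting error only, and dotted lines separate title number blocks. Libraries 5 and 8 hold the 2 highest values in every panel, and Rrm2 over Rrm2b reaches 2.88 in library 8.

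The same call was made for other replication and nucleotide genes. Of a list of 53 further genes 52 could be tested and 20 of these were variable, with a median range of 0.81 on the log2 scale, beside 30 of 45 and 1.43 for the members, a difference that was not tested. The widest tested were Mcm5, a helicase ring subunit, at 4.16 CPM in library 3 to 57.5 CPM in library 8, Asf1b, a histone chaperone, at 2.09 CPM in library 1 to 16.6 CPM in library 8, Clspn, the fork checkpoint mediator claspin, at 2.28 CPM in library 4 to 17.1 CPM in library 8, and Mcm6, another ring subunit, at 5.86 CPM in library 6 to 40.6 CPM in library 8. The narrowest were Chtf8, of an alternative clamp loader, at 1.15-fold, and Ssrp1, of the histone chaperone FACT, at 1.20-fold. Dscc1, also of the alternative clamp loader, did not pass the filter and ranged from 0.0920 CPM in library 6 to 3.01 CPM in library 8. By position the list was split. The middle library of every block was the highest in 20 of the 53 genes and the lowest in 13. Over the 12813 genes tested it was the highest in 3662 and the lowest in 3782.

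Within the MCM2-7 ring 5 of 6 genes were variable, and Mcm7 was not, at 1.39-fold. Mcm3, Mcm4, Mcm5, Mcm6 and Mcm7 were highest in library 8 and Mcm2 in library 7. By position Mcm2 was lowest in the middle library of every block, at 57.3, 79.1 and 98.5 CPM in libraries 2, 5 and 8. The mitosis list of 14 genes, with 14 variable and a median range of 4.54, had its median gene highest in library 8 (2.12), next in library 5 (1.64) and library 2 (0.89), the same 3 libraries as the median member at a larger distance. The median member's distances in those libraries were 0.94, 0.68 and 0.30. Mki67, a marker of cycling cells on that list, ranged from 4.98 CPM in library 3 to 149 CPM in library 8. Whether the lists differ was not tested.

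Several members share transcribed bases with a gene on the other strand, and no source used here says whether the authors counted by strand. The largest shared stretches with an expressed neighbour are 4648 bases of Chaf1a with Ubxn6, which reached 73.2 CPM, and 2758 bases of Gins2 with Gse1, which reached 64.0 CPM. Cdc45 shares 209 bases with Ufd1, Rfc4 194 with Eif4a2, Rfc5 499 with Wsb2 and Orc6 171 with Vps35. These neighbours reached 55.6, 323, 239 and 383 CPM in that order. The lowest values of the members were 1.87, 2.21, 8.77 and 20.7 CPM. Lig1 shares 247 bases with Zswim9, Fen1 130 with Tmem258, Tk1 83 with Afmid and Ticrr 51 with Kif7, which reached 21.4 CPM. On the same strand Pole2 shares 245 bases with Gm49384, which reached 1.97 CPM. Levels of all these members are uncertain to that extent. Named pseudogenes of Pcna and Tyms reached at most 0.820 CPM.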

How the data were processed

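Poly(A) RNA of D2.0R cells was sequenced in 9 libraries. The authors deposited estimated counts per gene, rounded to whole numbers and without normalisation. RSEM 1.3.3, STAR 2.7.8a, cutadapt 2.3, FastQC 0.11.8 and the build GRCm38 are listed, with no order or role, in the submitters' processing notes. Neither the annotation release nor the strand setting is given in the sources used here. Of 55492 rows, 5 name no mouse gene and hold 0 counts. Each of the 9 columns matched 1 sample title.

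Counts were scaled with TMM factors (edgeR 4.0.16, R 4.3.3), and CPM are counts per 1000000 of the scaled totals. Log2 CPM used a prior count of 2, which understates ranges of low genes. The edgeR filter without groups (10 counts scaled to the median library, reached in each of the 9 libraries, and 15 in all) kept 12813 genes with 99.9% of the counts. Each was tested for dispersion beyond counting noise (chi-square, 8 degrees of freedom, adjusted p under 0.05). Without groups there is no coefficient for a quasi-likelihood test, and the chi-square test does not separate biology from sorting or library preparation. The test was checked on simulated counts that carried counting noise only, the noise it assumes, so the check says nothing about noise beyond that. Intervals are exact 95% intervals (conditional binomial) and cover counting error only.

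Members and lists were chosen with earlier results of these data known. Values in every library are given for the genes of widest and narrowest range in each of 9 roles and for Rrm2, Rrm2b, Tyms, Tk1, Pcna and Uhrf1, and other members by their range. Of the list of further genes the 4 widest and 2 narrowest tested are named. Gene positions and exon lengths are those of GENCODE M21 (GRCm38), and promoter windows those of RefSeq (GRCm38.p6). Alternatives were RLE size factors (DESeq2 1.42.0), totals alone, other filters, prior counts and fold limits, second highest against second lowest library, and leaving out each library.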

Additional observations from a re-analysis of the deposited data

How the results depend on the processing

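No paired analysis was possible because the labels give no library a group. With RLE size factors, library totals alone, a mean of at least 1 CPM or a prior count of 0.5 or 5, the counts of variable members, further genes and genes in all, of members with the middle library of every block highest and of members with block 7 to 9 wholly above block 1 to 3 stayed within 1.5 times their values. The other counts by library order were not recomputed. Without any filter 6374 genes were variable over the whole table, because 27105 were then tested, and 30 members still were. By the second highest against the second lowest library the median range of the members was 1.07, 1894 genes and 25 members were variable, and Rfc3, Prim2, Rpa2, Cdc7 and Chaf1b lost the call. With a limit of 1.5-fold 7267 genes, 38 members and 36 further genes were variable, and with 4-fold 740, 12 and 8. Leaving out each library gave 26 to 30 variable members, 17 to 20 further genes and 3268 to 3560 genes in all, a median range of 1.13 to 1.45, and 38 to 39 members with the middle library of every block highest, which gives no value without library 2, 5 or 8. The count of members with block 7 to 9 wholly above block 1 to 3 ran from 5 to 34, with 34 without library 2 and 13 without library 9. No share over all genes is given for these settings, and the cause was not tested. Prim2 also lost its call without library 1 (0.96 on the log2 scale). The order of blocks at all 3 positions, an alternative added after the data were seen, held in 20 members with RLE size factors and in 18 with totals alone. Low counts limit Exo1, Ticrr, Gins1, Orc1 and Dna2, with 12, 20, 21, 25 and 30 counts in the library of lowest CPM.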

Other observations

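Levels can be compared between members only per length. Divided by the exon length of each gene and scaled to a sum of 1000000 per library (a TPM computed here from all exons, not the authors' value), Dut had the highest median, 157, followed by Pcna at 92.6 and Gins4 at 78.1. Ticrr had the lowest, 0.467, and Exo1 0.555. The 4 subunits of GINS, which stand in equal number in the complex, had median per-length levels of 78.1 for Gins4, 13.1 for Gins2, 4.35 for Gins3 and 2.86 for Gins1. With the longest coding transcript as the length, Gins4 still came first among them at 56.4, against 9.90 for Gins2. The order of the reductase genes was less firm, since Rrm2 had a median of 19.7 against 11.3 for Rrm1 by all exons, but 17.9 against 22.6 by the longest coding transcript.

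A few further genes were picked out after their values were seen. Samhd1, which breaks down deoxynucleotides and so opposes ribonucleotide reductase, stood at 79.2, 145 and 72.4 CPM in libraries 1, 2 and 3, at 61.5, 148 and 56.6 CPM in libraries 4, 5 and 6, and at 49.8, 145 and 48.5 CPM in libraries 7, 8 and 9. It was highest in libraries 5, 8 and 2, the 3 libraries highest for Rrm2, and its range was 3.04-fold (95% interval 2.83 to 3.27). Recql4, a helicase of replication initiation, stood at 5.47, 2.84 and 3.37 CPM in libraries 1, 2 and 3, at 7.91, 4.40 and 5.25 CPM in libraries 4, 5 and 6, and at 13.5, 5.78 and 7.33 CPM in libraries 7, 8 and 9. Libraries 7 and 4 were its highest and library 2 its lowest. Cdt1 ranged from 18.6 CPM in library 2 to 68.4 CPM in library 7, with libraries 2, 5 and 8 all below the other 6 (background 20.1%). Orc2, a core subunit of the recognition complex, was lowest in library 2 as well, at 23.6 CPM, next lowest in library 8, and highest in library 9 at 45.2 CPM, whereas Orc1 was highest in libraries 8 and 5.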
